A study of Mus musculus with 4 samples.

Results

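The Hedgehog ligands and the genes that receive and transmit their signal were followed in single cells of the mouse intestine at 2 fetal stages, in the adult and after irradiation. The set consists of 8 genes: the ligands Shh and Ihh, the receptor Ptch1, the signal transducer Smo, the decoy receptor Hhip and the transcription factors Gli1, Gli2 and Gli3. They were taken by symbol from the 31054 features measured, and all 8 were found. Each was described in cells with at least 1 Epcam molecule, which are called epithelial here, and in the stromal cells of the E17.5 library.

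Hedgehog ligands are secreted proteins that leave the producing cell and bind Ptch1 on neighbouring cells. Unbound Ptch1 holds the membrane protein Smo inactive. When a ligand occupies Ptch1, Smo becomes active and the Gli factors change the transcription of their targets, among which are Gli1, Ptch1 and Hhip themselves. Gli3 acts largely as a repressor in the absence of ligand, and Gli2 largely as an activator. In the developing gut the ligands come from the epithelium and the response is known chiefly in the mesenchyme, where it is needed for smooth muscle and villus formation.

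All cells came from Bmi1-GFP mice, a reporter strain in which a green fluorescent protein marks cells that transcribe the Bmi1 locus. There was 1 library for each of 4 groups: embryonic day 12.5 (E12.5, intestines dissected from embryos), embryonic day 17.5 (E17.5, small intestine), adult, and irradiated adult. No untreated strain without the reporter is among the groups, and the labels do not state the sorting gates, the number, age or sex of the animals, whether they were pooled, or the radiation dose and interval. Single epithelial cells sorted on a flow cytometer were profiled with the 10x Chromium 3' version 3 kit, which counts unique molecular identifiers (UMIs), each standing for 1 captured RNA molecule. With 1 library per group no difference between groups has a replicate check, and no p-value is given. The 95% intervals below cover counting error only.

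After cells with fewer than 500 detected genes or more than 20% mitochondrial UMIs were set aside, 3184 to 4602 cells remained per library. Of these, 86.2% to 93.7% had an Epcam UMI: 3961 cells for E12.5, 4212 for E17.5, 3265 for the adult and 2948 after irradiation. Depth differed between libraries, with medians of 19654, 12888, 4296 and 9499.5 UMIs per epithelial cell in that order. Levels are therefore given as UMIs of a gene per 1000000 UMIs summed over the cells (CPM), and shares of cells after each cell was thinned to 2000 UMIs. Pairs of libraries shared between 6 and 12 cell barcodes. The E17.5 library also held pancreas-like cells, whose acinar and islet clusters carried Cpa1, Prss1, Ins1 and Ins2. Summed over the 8 acinar markers, Epcam-positive cells reached 9769 CPM at E17.5 and 28.9 to 51.2 CPM in the other libraries.

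Stromal cells at E17.5 were taken from 5 clusters led by mesenchymal, smooth muscle or mesothelial markers, in a clustering from which the 8 genes and the pathway lists were left out. These clusters held 270 cells. The 202 with no Epcam UMI formed the stromal set, with 1357416 UMIs in all and a median of 6156 per cell, and the other 68 stayed among the Epcam-positive cells. In the stromal set 9 of 9 mesenchymal and 7 of 7 smooth muscle markers were detected, with sums of 11002 and 27901 CPM against 155 and 144 CPM in the epithelial cells. The clusters were chosen by these same lists, so the sums describe the set and do not test its identity. Defining markers of other cell types were at 0 there: Cdh5, Emcn and Cldn5 of the 6 endothelial markers (summed level 4.42 CPM), Ptprc, Cd52 and Cd3e of the 6 immune markers (19.2 CPM), and among the 6 neural and glial markers Sox10 and Tubb3 (8.10 CPM). Pancreatic acinar transcripts reached 1335 CPM in the stromal set, and their part in the results was not tested.

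To show the sequence from which 3 of the genes are transcribed, the bases just upstream of the RefSeq start (GRCm38.p6) are printed for Ptch1 and Hhip, pathway targets found together in 2 of the stromal clusters below, and for Ihh, the ligand still found in every library. Each window is 250 bases, 5′ to 3′ on the strand of the gene, which is the minus strand for all 3, and capitals mark the GC box GGGCGG or its complement CCGCCC.
Ptch1, chr13:63565736-63565985: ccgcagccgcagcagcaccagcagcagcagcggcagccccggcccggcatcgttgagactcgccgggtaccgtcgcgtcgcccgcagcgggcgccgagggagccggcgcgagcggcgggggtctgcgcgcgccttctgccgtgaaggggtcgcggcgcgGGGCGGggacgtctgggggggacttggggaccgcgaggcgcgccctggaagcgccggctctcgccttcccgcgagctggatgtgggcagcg
Hhip, chr8:80058009-80058258: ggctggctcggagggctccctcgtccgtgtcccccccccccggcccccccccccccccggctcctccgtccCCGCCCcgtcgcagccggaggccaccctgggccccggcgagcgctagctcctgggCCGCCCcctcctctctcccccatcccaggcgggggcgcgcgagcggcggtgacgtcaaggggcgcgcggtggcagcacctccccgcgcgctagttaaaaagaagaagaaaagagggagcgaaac
Ihh, chr1:74951673-74951922: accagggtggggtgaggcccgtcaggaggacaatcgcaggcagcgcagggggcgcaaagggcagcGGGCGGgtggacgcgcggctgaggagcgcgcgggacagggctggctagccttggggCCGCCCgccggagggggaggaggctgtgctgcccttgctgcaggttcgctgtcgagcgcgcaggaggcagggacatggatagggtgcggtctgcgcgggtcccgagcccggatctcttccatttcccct
The windows are 78.4% (Ptch1), 76.0% (Hhip) and 72.0% (Ihh) G or C. The GC box occurs once or more in 32.7% of all 32851 RefSeq windows of this length, searched on both strands. The Gli-binding sequence GACCACCCA is in 0.225% of all windows, and GACCNCCCA, which contains it and leaves 1 base open, in 0.868%. Neither was found in the windows of the 6 members present in the table (Ihh, Ptch1, Smo, Hhip, Gli2 and Gli3), which says only that these letters are not in these 250 bases. In the GENCODE M21 annotation (GRCm38) Hhip spans chr8:79965851-80058006 and Ihh chr1:74945315-74951672, so both windows precede the gene. Ptch1 spans chr13:63508328-63573598, so its window lies inside the annotated gene, before the start of a shorter transcript.

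Shh, the first ligand (chr5:28456815-28467256), had the most UMIs of the 8 genes at E12.5 and was low in the epithelium by E17.5. Its level was 316 CPM at E12.5 (95% interval 312 to 319, 27948 UMIs), 4.51 CPM at E17.5 (4.04 to 5.02, 337 UMIs) and 0.163 CPM in adult cells (0.0529 to 0.380, 5 UMIs). No UMI was found after irradiation, where 3 UMIs would have been 0.0733 CPM. Between E12.5 and E17.5 the level dropped 69.9-fold, a log2 difference of -5.84 after 1 CPM was added to both sides, and from E17.5 to the adult by a further -2.25. Among cells thinned to the same depth, 45.7% carried a Shh UMI at E12.5 (44.0% to 47.3%) and 0.732% at E17.5 (0.494% to 1.04%). Without thinning the shares were 89.2% and 6.32%. None of 202 stromal cells had a Shh UMI, where 3 UMIs would have been 2.21 CPM and the upper 95% limit was 2.72 CPM.

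Ihh, the second ligand, was present in the epithelium of all 4 libraries and fell less steeply than Shh from E12.5 to the adult. Its level was 95.03 CPM at E12.5 (93.0 to 97.1), 35.8 CPM at E17.5 (34.5 to 37.2), 13.5 CPM in adult cells (12.2 to 14.8) and 15.5 CPM after irradiation (14.4 to 16.8). It dropped 2.65-fold from E12.5 to E17.5 (log2 difference -1.38) and 2.66-fold from E17.5 to the adult (-1.35). After irradiation it differed by 0.19 on the log2 scale, short of the 2-fold mark used here, and the difference was 0.72 when each cell's CPM was averaged in place of the summed UMIs. The share of thinned cells with an Ihh UMI was 18.2%, 5.59%, 1.66% and 2.69% in the same order. The makeup of the sorted cells differed between libraries, and its part in these Ihh levels was not tested. In the hormone classes described below, Ihh at E17.5 and in the adult was 25.05 and 27.3 CPM in Cck cells. In Tph1 cells it was 63.4 and 23.2 CPM. The balance of the 2 ligands turned over between the fetal stages. There were 3.32 Shh UMIs for each Ihh UMI at E12.5 and 7.93 Ihh UMIs for each Shh UMI at E17.5, in counts of 3' ends that are not scaled by transcript length. No Ihh UMI was found in the stromal set. Against a floor of 3 UMIs over the set, the epithelial level was 16.2-fold higher, and for Shh 2.04-fold higher. The upper 95% limit of the stromal over epithelial log2 ratio, with no CPM added, was -3.72 for Ihh and -0.72 for Shh. For Shh that limit is short of 2-fold.

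**Figure D1:**
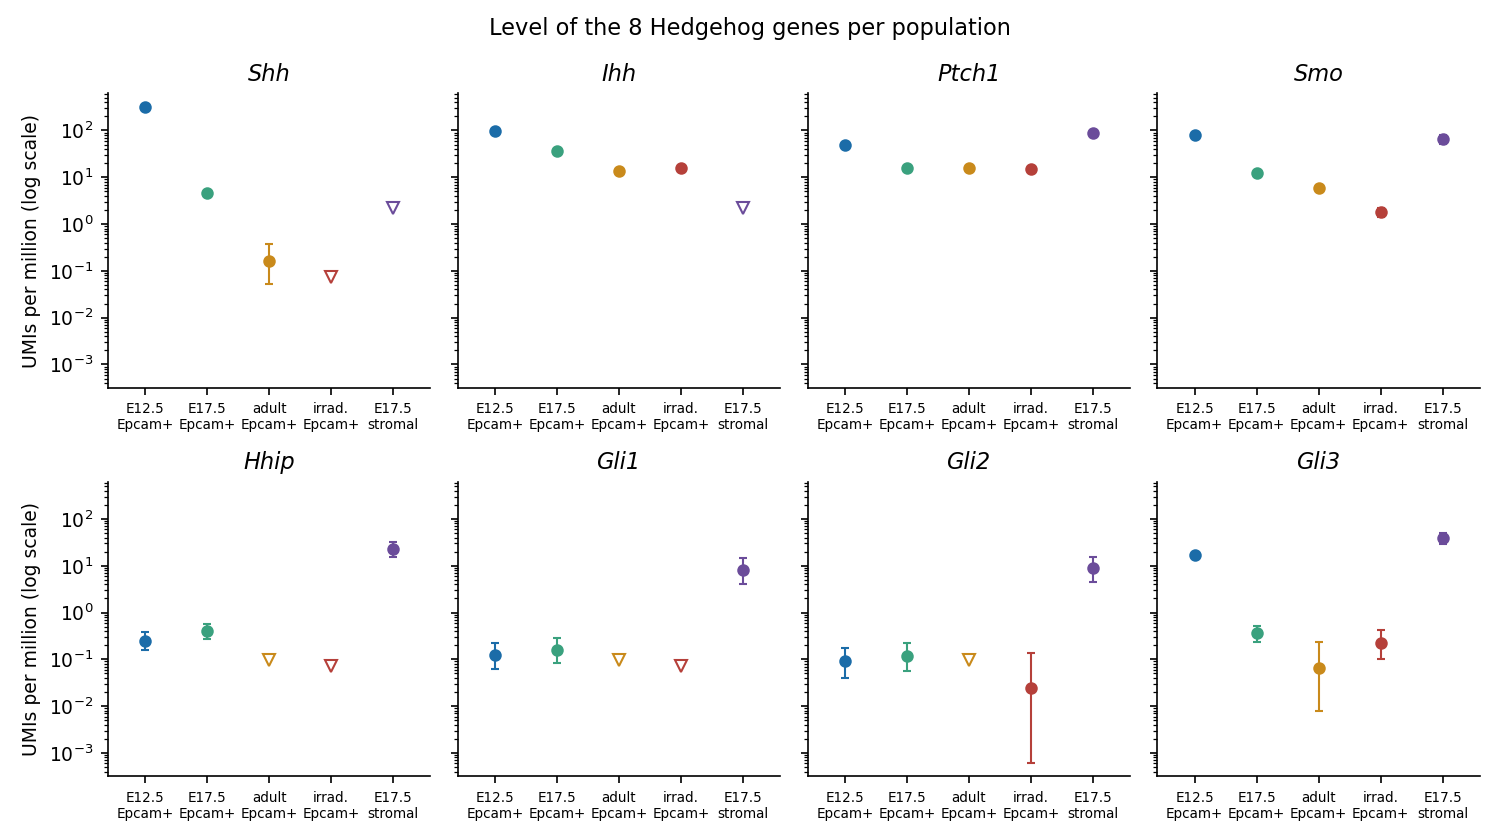
Level of each of the 8 genes, in CPM on a log axis, in Epcam-positive cells of the 4 libraries and in the E17.5 stromal set. Points are single libraries with 95% Poisson intervals, and open triangles mark populations with no UMI, drawn at the level of 3 UMIs. Shh and Ihh are highest at E12.5 and have no UMI in the stromal set, while the other 6 genes are at their highest or second highest there.

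Ptch1, the receptor and itself a target of the pathway, was 49.4 CPM in the E12.5 epithelium (47.9 to 50.9), 16.0 CPM at E17.5 (15.1 to 16.9), 16.1 CPM in adult cells (14.7 to 17.5) and 14.8 CPM after irradiation (13.6 to 16.0). It was 3.097-fold lower at E17.5 than at E12.5, while the 3 later libraries had overlapping intervals. Smo (chr6:29735503-29761365) was lower at each step, from 81.0 CPM at E12.5 to 12.2 CPM at E17.5, then 5.86 CPM in adult cells and 1.78 CPM after irradiation. The first of these steps was 6.66-fold, and the others had log2 differences of -0.94 and -1.30. On this scale the 2-fold mark is 1. The adult step did pass the 2-fold mark as a mean over cells (-2.17), in cells with at least 1000 genes and at most 10% mitochondrial UMIs (-1.17), and with 0.1 CPM added (-1.04). The step after irradiation passed it here but not as a mean over cells (-0.31), in cells with at least 1000 genes and at most 10% mitochondrial UMIs (-0.99), or with 10 CPM added (-0.43).

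Gli3 (chr13:15463235-15730026) was the one Gli gene well above the limit of detection in the E12.5 epithelium. It reached 17.1 CPM there (16.3 to 18.0, 1517 UMIs), against 0.362 CPM at E17.5 (27 UMIs), 0.0651 CPM in adult cells (2 UMIs) and 0.220 CPM after irradiation (9 UMIs). The drop between the fetal stages was 47.4-fold. The remaining 3 genes were near the limit of detection in the epithelium of every library. Hhip, which binds ligand and keeps it from Ptch1, had 22 UMIs at E12.5, 30 at E17.5 and 0 in both adult libraries. Gli1 (chr10:127329882-127341974), commonly used as a readout of pathway activity, had 11, 12, 0 and 0 UMIs in the order of the libraries. Gli2 (chr1:118834132-119053619) had 8, 9, 0 and 1. A count of 3 UMIs corresponds to 0.0977 CPM in the adult library and 0.0733 CPM in the irradiated, so these counts bound the epithelial level rather than show absence. At E17.5 much of the Gli1 and Gli3 was in the 68 Epcam-positive cells of the stromal clusters. Of 12 Gli1 UMIs, 5 were in cluster 23, 2 in cluster 22 and 1 each in clusters 17 and 24. Of 27 Gli3 UMIs, 12 were in cluster 17, 3 in cluster 24, 2 in cluster 21 and 1 each in clusters 22 and 23. Of 9 Gli2 UMIs, 1 each was in clusters 17 and 23.

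Of the 7 members with at least 10 UMIs in either population, 5 were at least 2-fold lower at E17.5 than at E12.5 (Shh, Ihh, Ptch1, Smo and Gli3) and none was higher. Among all 16974 genes that met the same minimum, 14.4% were at least 2-fold lower and 13.3% higher, 27.7% in all. From E17.5 to the adult, 2 of 7 tested members were lower (Shh and Ihh), where 12.1% of all genes were lower and 11.9% higher. Neither held with 10 CPM added in place of 1 (Shh -0.51, Ihh -0.96), and with 0.1 CPM added 6 members passed. After irradiation, 1 of 3 tested members was lower (Smo), against 4.66% of all genes lower and 2.64% higher, 7.31% in all.

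At E17.5 the stromal set held no ligand UMI, and the receptor, the transducer, the decoy and all 3 Gli genes were higher than in the epithelium of the same library. All 8 members were tested and passed the 2-fold mark, 6 higher and 2 lower, where 17.2% of all 15950 genes were higher and 18.7% lower, 36.0% in all. The epithelial side includes the 68 Epcam-positive cells of the stromal clusters, which held much of its Gli1 and Gli3. Ptch1 was 86.2 CPM in the stromal set (71.3 to 103, 117 UMIs) against 16.0 CPM in the epithelium, a log2 difference of 2.36. Smo was 64.8 CPM (52.0 to 79.9) against 12.2 CPM, a difference of 2.32. Gli3 stood at 39.0 CPM (29.2 to 51.1) against 0.362 CPM, a difference of 4.88, the widest of the 6 genes that were higher. Hhip was 22.8 CPM (15.5 to 32.4) against 0.402 CPM, a difference of 4.09. Gli1 and Gli2 were at lower levels, 8.10 CPM (4.05 to 14.5, 11 UMIs) and 8.84 CPM (4.57 to 15.4, 12 UMIs), with differences of 2.97 and 3.13. Those last values rest on few molecules and shrank to 0.83 and 0.90 when 10 CPM was added to both sides instead of 1. Under that setting Shh also fell short of the mark, at -0.54, which left 5 of 8 members past it. In thinned cells the stromal shares were 12.4% for Ptch1 (8.09% to 17.8%) and 12.9% for Smo (8.52% to 18.4%), against 4.24% and 2.00% in the epithelium.

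The stromal response genes were spread unevenly over the 5 clusters. Ptch1 was 659 CPM (478 to 884) in the 12 cells of cluster 23, a mesenchymal-like group led by Adamdec1, Ccl11 and Nkx2-3, where 11 of the 12 cells carried a UMI. It was 158 CPM in the 7 cells of mesothelial-like cluster 24, 119 CPM (83.6 to 165) in the 38 cells of smooth muscle-like cluster 22, led by Actg2, and 48.4 CPM (31.3 to 71.4) in the 82 cells of smooth muscle-like cluster 17, led by Acta2. It was 9.48 CPM (2.58 to 24.3, 4 UMIs) in the 63 cells of mesenchymal-like cluster 21, led by Dcn and Col1a2. That interval includes the epithelial level of 16.0 CPM. Without cluster 23 the stromal over epithelial difference of Ptch1 was 1.76, while those of Gli1, at 2.91, and Hhip, at 3.91, moved little. Hhip was detected in clusters 22 and 23 only, at 86.2 CPM (26 UMIs) and 74.8 CPM (5 UMIs). Clusters 17 and 21 had none, and 3 UMIs there would have been 5.81 and 7.11 CPM. Gli3 was 36.8, 35.6 and 59.7 CPM in clusters 17, 21 and 22, 14.97 CPM (1 UMI) in cluster 23 and without a UMI in cluster 24, and Smo ranged from 43.1 to 138 CPM over the 5 clusters. The 2 smooth muscle-like clusters thus differed in Hhip, at 0 of 82 and 10 of 38 cells with a UMI, and in Ptch1, with intervals that did not overlap. They come from 1 library.

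**Figure D2:**
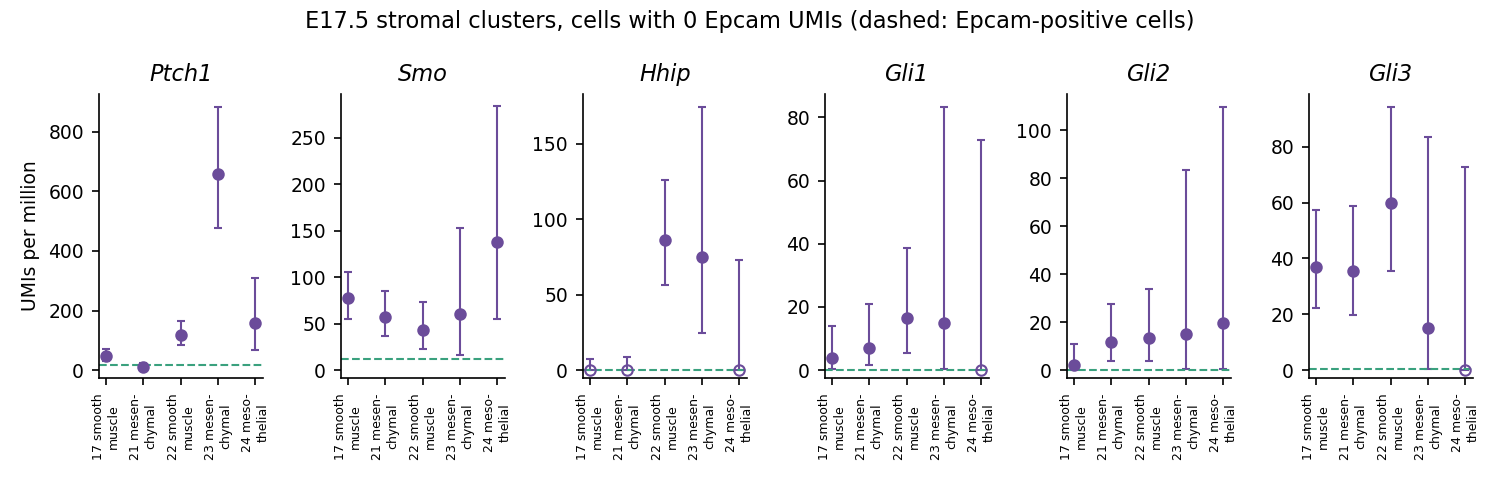
Level of 6 genes in the stromal clusters of the E17.5 library, in CPM on linear axes, in cells with no Epcam UMI. Points carry 95% Poisson intervals, open points have no UMI, and the dashed line is the level in Epcam-positive cells. Ptch1 reaches 659 CPM in cluster 23, and Hhip is found in clusters 22 and 23.

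At E12.5 UMIs of both ligands were found in every one of the 14 clusters, at levels that differed between them. Free RNA in droplets can also give UMIs, and its part in the cluster levels was not tested. Of the 265 cells without an Epcam UMI, 66 carried a Shh UMI, at 156 CPM. Of their 79 Shh UMIs, 53 were in 165 cells of cluster 2, and 3 were in 32 cells of cluster 13, led by Acta2. Cluster 2 had a median depth of 1082 UMIs and, over all its cells, 1672 CPM of Epcam. Shh ran from 230 to 412 CPM in the 11 clusters outside the Cpa1, Ttr and Acta2 groups. It was lower in cluster 10 (156 cells), a pancreatic progenitor-like group led by Spp1, Cpa1 and Dlk1, at 108 CPM (97.2 to 119), where Ihh was also low at 37.8 CPM (31.7 to 44.7). Low expression of Shh in the pancreatic domain of the endoderm is a known feature of pancreas formation. Among the remaining clusters, those led by Sp5, Irx1, Osr2 or cell-cycle genes had 318 to 395 CPM of Shh, and those led by Onecut2, Sfrp5 and Fabp2 (clusters 5, 6 and 9) had 230 to 268 CPM. Gli3 followed the same division, at 8.24 to 11.03 CPM in the Onecut2 group and 15.8 to 24.7 CPM in the other. The ranges of Ihh met, at 92.1 to 109 CPM in the Onecut2 group and 89.7 to 96.3 CPM in the other. Cluster 7, led by Postn, Anxa5 and Hoxb9, had the highest Ihh at 127 CPM (119 to 136). Cluster 2 had the highest Shh and Ptch1, at 412 and 124 CPM, but its median depth was 1082 UMIs per cell.

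**Figure D3:**
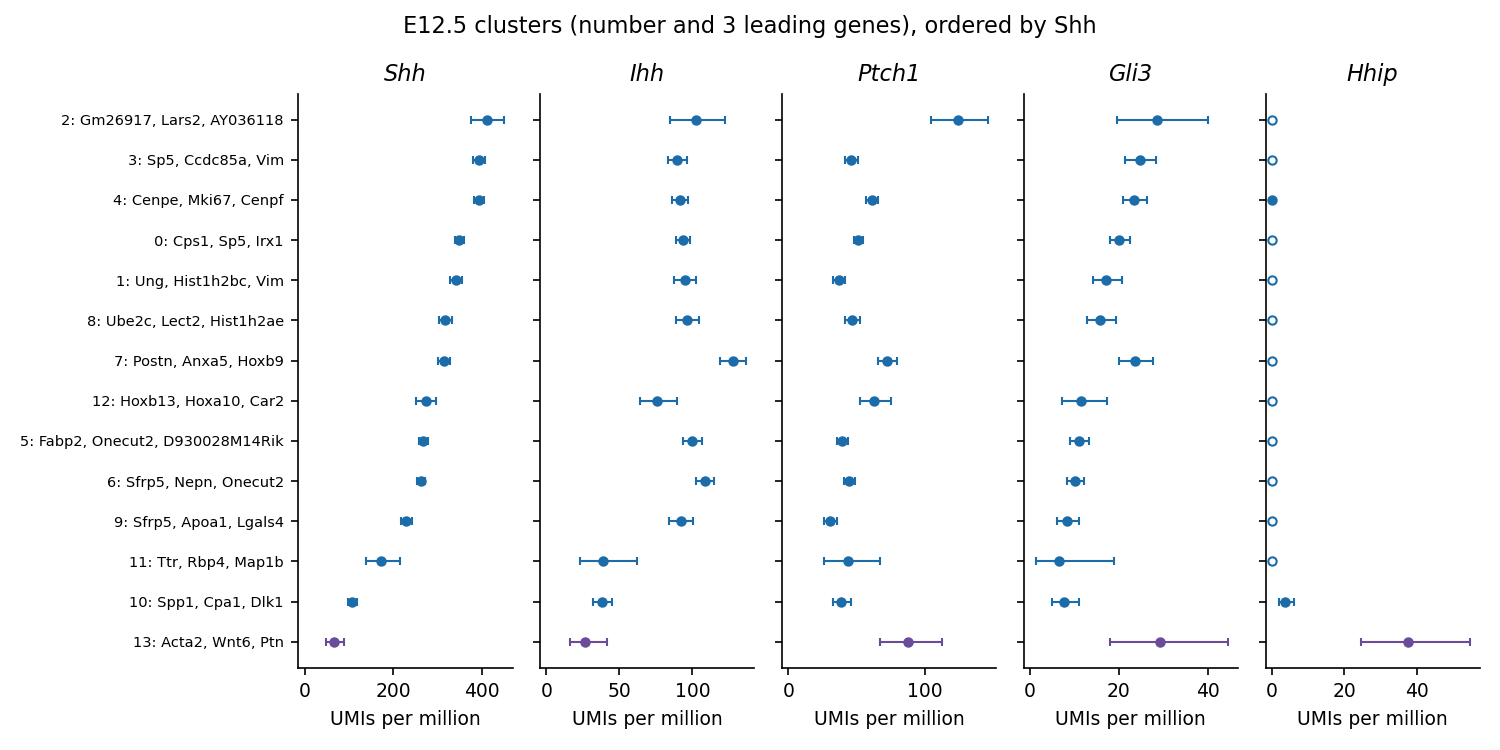
Levels of 5 genes in the 14 clusters of the E12.5 library, in CPM on linear axes with 95% Poisson intervals, ordered by Shh. Labels give the cluster number and 3 leading genes, open points have no UMI, and purple marks the cluster with mesenchymal markers. Cluster 10 is low for Shh and Ihh, and cluster 13 is high for Hhip.

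Within E12.5 cells, detection of a ligand told little of the other genes. In thinned cells an Ihh UMI was found in 19.2% of cells with a Shh UMI (17.4% to 21.2%) and 17.3% of those without (15.6% to 19.0%), so the intervals overlap. A Ptch1 UMI was found in 10.9% of the former and 9.81% of the latter. Nor did the ligand levels differ much with the reporter or the cell cycle. Shh was 312 CPM in cells with an eGFP UMI and 319 CPM in those without, and 318 CPM in cells with at least 3 UMIs of the 15 G2/M genes after thinning, against 309 CPM in the rest. Ptch1 was 51.8 CPM in the former (50.04 to 53.7) and 42.6 CPM in the latter (40.2 to 45.2), with intervals apart.

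The few Hhip molecules of the E12.5 epithelium came mostly from 2 clusters. Of 22 UMIs, 13 were in the pancreatic progenitor-like cluster 10 and 8 in cluster 13, a group of 61 cells led by Acta2, Wnt6 and Ptn that also carried Krt5 and Col3a1. Over all its cells cluster 13 had 37.6 CPM of Hhip (24.8 to 54.7), 12.5 CPM of Gli1 (5.73 to 23.8), 87.7 CPM of Ptch1 and 29.2 CPM of Gli3, with Shh at 66.8 CPM, the lowest of the 14 clusters. Only 29 of its 61 cells had an Epcam UMI. At E17.5, 15 of the 30 epithelial Hhip UMIs were in acinar-like cluster 2, and 12 were in cells of stromal clusters 22, 23 and 24 that had an Epcam UMI.

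At E17.5 Ihh differed between cell types over a wide range, and clusters low in Cdx2, the homeobox factor of intestinal identity, were low in Ihh. Over the 20 clusters of at least 50 cells outside the stroma, Pearson's r between the log2 levels of Ihh and Cdx2 was 0.89 and Spearman's rho 0.68, as a description of clusters that share a library. The split, drawn after the values were seen, was wide. In 6 clusters with 1.25 to 14.2 CPM of Cdx2, Ihh was between 0 and 2.56 CPM. In 14 clusters with 88.1 to 236 CPM of Cdx2 it was between 7.05 and 69.5 CPM. The r of 0.89 spans both sets. Within the 14, clusters of like Cdx2 level could differ in Ihh. Cluster 4 had 202 CPM of Cdx2 and 69.5 CPM of Ihh, and cluster 7 had 216 and 7.05 CPM. The first set consists of the acinar-like clusters 2 and 8, the Ins1-led islet-like cluster 15, the Ppy-led cluster 19, the Spp1- and Neurog3-led cluster 16 and the Sst-led cluster 13. Summed over each set, Ihh was 0.751 CPM (9 UMIs) and 42.4 CPM (2671 UMIs), and Shh was 0 and 5.37 CPM (338 UMIs). Ptch1 did not follow this division, at 17.4 and 14.8 CPM. Elsewhere r between Ihh and Cdx2 was lower, with 0.80 (13 clusters) at E12.5, 0.50 (17 clusters) among adult cells and 0.33 (16 clusters) after irradiation.

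Within the 14 E17.5 clusters of higher Cdx2, Ihh was highest in cluster 4, at 69.5 CPM (58.1 to 82.4). This is the Reg4, Tph1 and Chga group, with the markers of serotonin-producing enteroendocrine cells. Enterocyte-like cluster 3 had 46.6 CPM, goblet-like cluster 10 had 49.4 CPM, and the stem-like clusters 0 and 5, led by Olfm4 and proliferation genes, had 43.5 and 39.2 CPM. The Cck- and Gast-led cluster 9 had 27.9 CPM, and the Gip-led cluster 7 the least of them at 7.05 CPM (3.64 to 12.3). The unnamed cluster 1, led by Cldn15 and St3gal4, had 50.7 CPM. What remained of Shh was highest in stem-like cluster 5 at 10.7 CPM, followed by goblet-like cluster 10 at 8.36 CPM, the Gcg- and Tac1-led cluster 11 at 7.26 CPM, stem-like cluster 0 at 6.88 CPM and cluster 1 at 6.02 CPM. It was 1.63 CPM in enterocyte-like cluster 3 and 0 UMIs in clusters 4 and 9. Smo was highest among these clusters of higher Cdx2 in cluster 14, led by Tff2 and Akr1b7, at 29.9 CPM (22.5 to 39.0). Cluster 14 was unnamed, had 93.1 CPM of Cdx2, and had Spp1 and Bicc1 among its leading genes, as did cluster 16. Smo was 42.3 CPM (32.0 to 54.8) in cluster 16, of the set low in Cdx2, and 47.7 to 100.01 CPM over all cells of the 5 stromal clusters.

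Ptch1 in the E17.5 epithelium was highest in both Sst-led clusters, 45.8 CPM (33.0 to 62.0) in cluster 13 and 43.5 CPM (29.5 to 61.7) in cluster 18, and lowest, among clusters with a median depth above 2000 UMIs, in acinar-like cluster 8 at 5.41 CPM and enterocyte-like cluster 3 at 6.30 CPM. No Gli1 UMI was found in either Sst-led cluster, where 3 UMIs would have been 3.27 and 4.21 CPM.

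**Figure D4:**
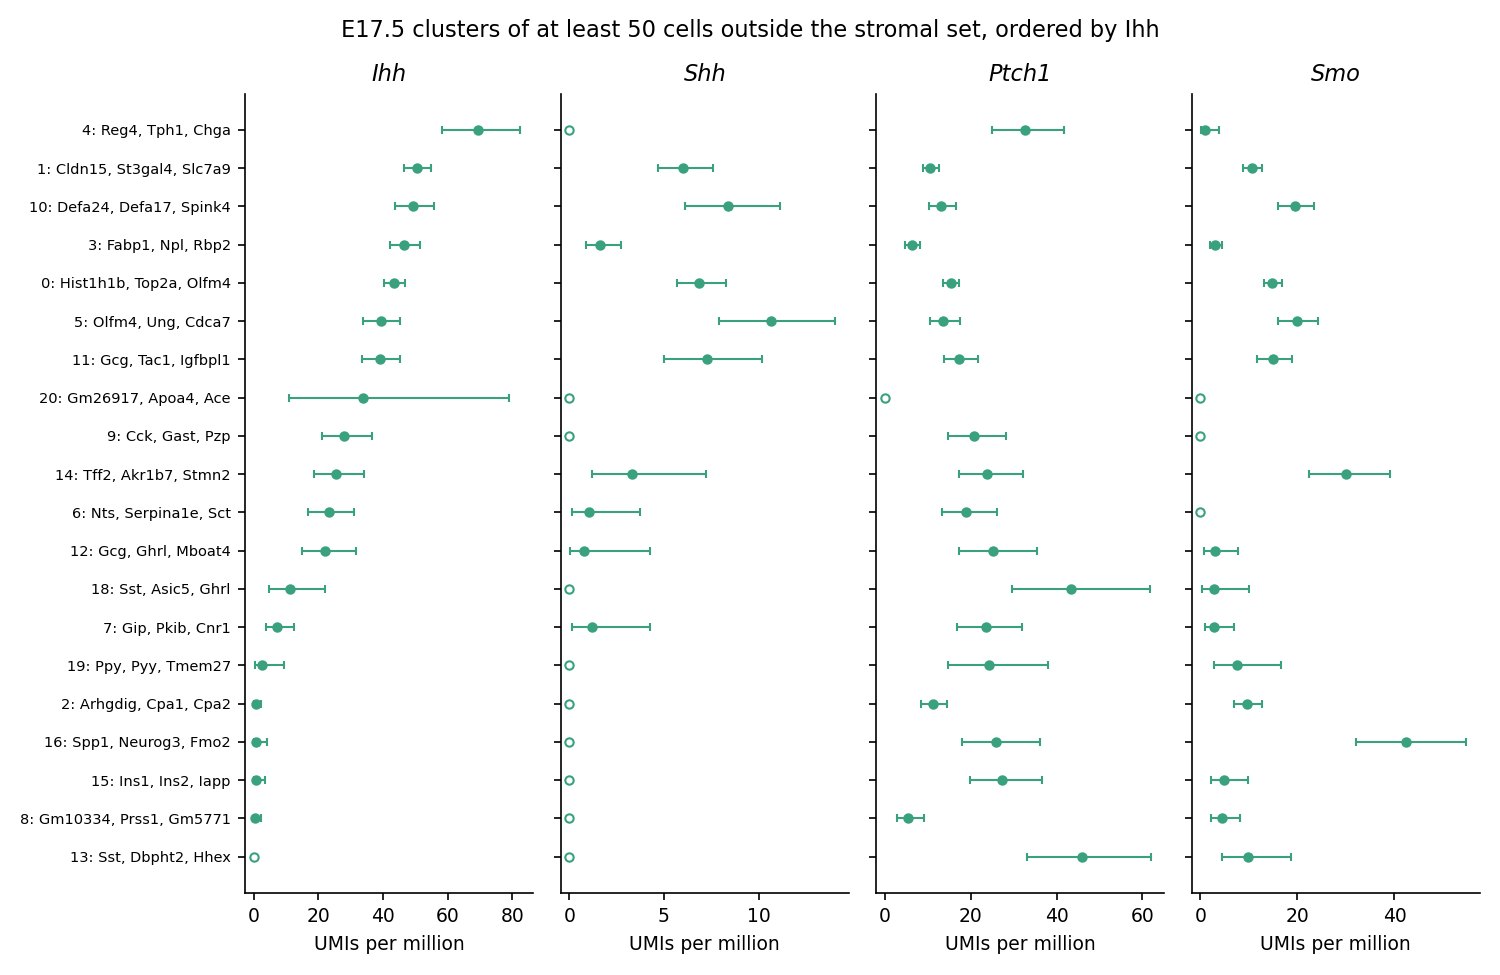
Levels of 4 genes in 20 clusters of the E17.5 library outside the stroma, in CPM on linear axes with 95% Poisson intervals, ordered by Ihh. Labels give the cluster number and 3 leading genes, and open points have no UMI. The 6 clusters at the foot have at most 2.56 CPM of Ihh, while the Sst-led clusters 13 and 18 have the highest Ptch1.

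The makeup of the sorted cells differed between libraries: the 10 enteroendocrine markers summed to 19920 CPM at E17.5, 68816 CPM in adult cells and 84941 CPM after irradiation. Ihh and Ptch1 were therefore also compared within hormone classes, which were defined after the data were seen. A cell was placed in the class of its leading hormone where that transcript made up at least 1% of its UMIs, and otherwise in the Tph1 class if it had at least 3 Tph1 UMIs. Between 133 and 326 epithelial cells per library had a share between 0.5% and 2%. In the Tph1 class Ihh was 63.4 CPM at E17.5 (54.5 to 73.2, 322 cells), 23.2 CPM in adult cells (19.3 to 27.7, 588 cells) and 12.3 CPM after irradiation (10.3 to 14.5, 925 cells). These 3 intervals are apart, and the order was the same with the hormone share set at 0.5% or 2%. In the Cck class it was 25.05 CPM (20.3 to 30.5), 27.3 CPM (22.05 to 33.4) and 28.1 CPM (24.9 to 31.6), with overlapping intervals. It was low in the Gip class of all 3 libraries, at 7.07, 6.25 and 4.77 CPM. In the Sst class it was 8.33 CPM (3.06 to 18.1), 16.8 CPM (10.5 to 25.5) and 12.5 CPM (8.73 to 17.4), again with overlap. At E17.5 this class may include cells of Sst-led cluster 13, which had 14.2 CPM of Cdx2 and no Ihh UMI. The Ghrl class had 27.8, 22.2 and 4.12 CPM (57, 6 and 2 UMIs), the Nts class 31.9, 11.5 and 13.2 CPM (46, 3 and 4 UMIs) and the Gcg class 16.6, 4.90 and 5.28 CPM (18, 1 and 2 UMIs), so the later values of these 3 rest on few molecules. In cells of no class Ihh was 38.3, 8.89 and 13.2 CPM, but their makeup was not matched: tuft-like clusters held 73.8% of them in the adult and 48.7% after irradiation, while at E17.5 the largest named groups were stem-like, acinar-like and enterocyte-like, at 27.8%, 16.7% and 13.5%. In the adult the Tph1 class thus lay below E17.5 with intervals apart, while the Cck, Gip and Sst classes overlapped. Whether the classes differ in this was not tested.

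Ptch1 was highest in the Sst class of the E17.5 library, at 47.2 CPM (32.7 to 65.9), and of the adult library, at 40.6 CPM (30.4 to 53.0). After irradiation it was 32.9 CPM in the Sst class (26.6 to 40.4) and 32.9 CPM in the Nts class, the latter from 10 UMIs. In the Tph1 class it was 26.9, 28.7 and 18.8 CPM, and in cells of no class, of unmatched makeup, 13.8, 9.48 and 5.11 CPM. The Sst class lay above the cells of no class in all 3 libraries, with intervals that do not overlap. The part of cluster 13, Sst-led and low in Cdx2, in the E17.5 Sst class was not determined. That class may therefore not match the adult one in makeup.

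**Figure D5:**
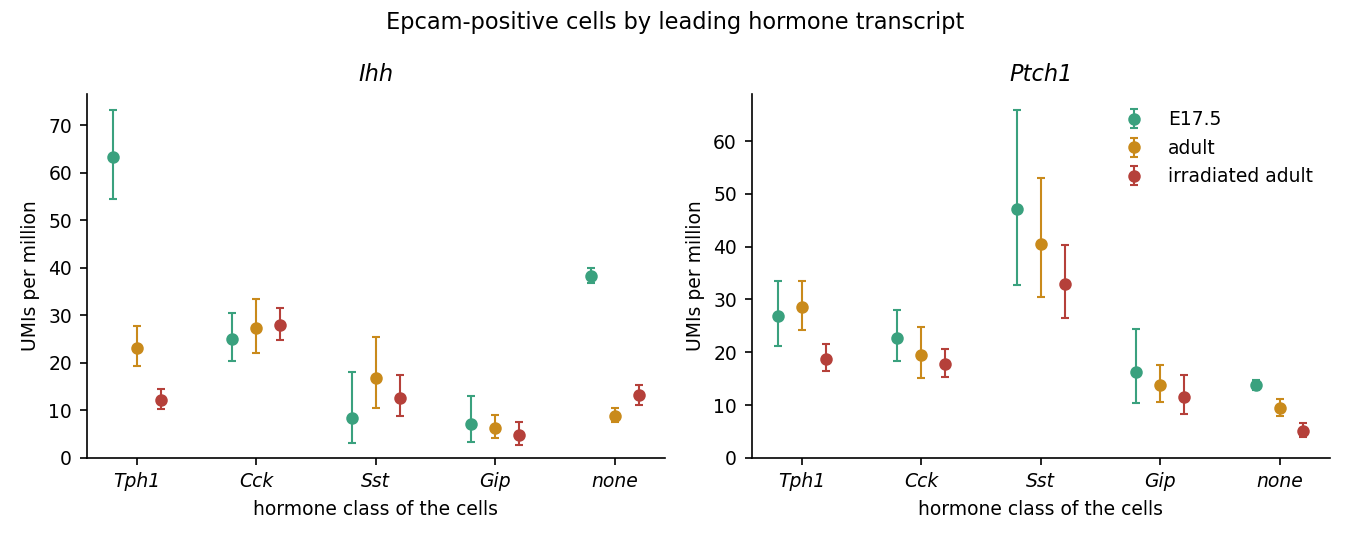
Ihh and Ptch1 in Epcam-positive cells grouped by hormone class, in CPM on linear axes, in the E17.5, adult and irradiated adult libraries, with 95% Poisson intervals. Ihh in the Tph1 class is 63.4, 23.2 and 12.3 CPM, and Ptch1 in the Sst class is 47.2, 40.6 and 32.9 CPM.

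In the adult, most Smo UMIs came from cells with proliferation genes. Of 180 epithelial UMIs, 138 (76.7%) were in the 150 epithelial cells of cluster 9, a stem-like group led by Mki67, Ube2c and Top2a, which held 23.8% of all epithelial UMIs. The level was 18.9 CPM there (15.9 to 22.3) and 0.346 CPM in tuft-like cluster 1 (0.00877 to 1.93). Paneth-like cluster 13 had 8.41 CPM (5.67 to 12.01) and a further 30 of the UMIs (16.7%), and held 11.3% of all epithelial UMIs. Cells with at least 3 UMIs of the G2/M genes had 19.7 CPM of Smo (16.0 to 23.9) and the rest 3.13 CPM (2.48 to 3.91). All 5 adult Shh UMIs were in the same cluster 9. In the irradiated adult 43 of 73 Smo UMIs (58.9%) were in cluster 11, led by Ccnd1 and Apoa4, at 7.82 CPM (5.66 to 10.5). That cluster held 13.4% of all epithelial UMIs of its library. The 15 genes of the G2/M list summed to 592 CPM in the adult epithelium and 137 CPM after irradiation, and the part of this difference in the Smo values was not tested. Adult Ihh was highest in cluster 11, led by Pzp, Cyp2j5 and Pgc with Cck, at 43.1 CPM (33.3 to 54.8), and in enterocyte-like cluster 15 at 38.4 CPM (30.5 to 47.8). Tuft-like cluster 1 had 1.39 CPM and Paneth-like cluster 13 had 1.96 CPM.

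The wider pathway was read from lists of genes by role. Of the 11 genes for ligand processing and release, 10 were tested between E12.5 and E17.5, with 2 higher and 3 lower and a median of -0.54 against -0.13 over all genes. The background for these lists is 13.3% of all genes higher and 14.4% lower, and the count of 2 higher is near it. Gpc6, a cell-surface proteoglycan, went from 61.3 to 1.49 CPM, and Scube3, a secreted carrier of ligand, from 13.2 to 0.201 CPM. Disp2, related to the ligand-releasing protein Disp1, went the other way, from 0.113 to 12.9 CPM, and stood at 43.4 CPM in adult cells and 72.1 CPM after irradiation. The enteroendocrine markers rose in the same order, with sums of 56.8, 19920, 68816 and 84941 CPM. The part of this makeup in the Disp2 levels was not tested. Among 5 co-receptors and receptors, 2 were lower at E17.5 and none higher (median -0.38), among them Gas1, a ligand co-receptor, at 19.2 and 4.89 CPM. Of 17 cytoplasmic regulators 6 were lower and 1 higher (median -0.72), including Kif7, which regulates Gli proteins at the cilium, at 4.61 and 0.147 CPM, and Evc2, at 11.6 and 1.55 CPM. The higher gene was the kinase Ulk3, at 1.14 and 9.90 CPM. Of 11 cilium genes 2 were lower (median -0.63), namely the kinesin Kif3a, at 48.6 and 17.2 CPM, and Tulp3, at 14.1 and 5.65 CPM. The 2 lower cilium genes are near that background as well. After irradiation none of the tested genes in these 4 lists passed the 2-fold mark, where 7.31% of all genes did, so that 0 in lists this short is not far from the background.

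Between the stromal set and the epithelium of E17.5 the lists are read against 17.2% of all genes higher and 18.7% lower. Of 11 tested gut mesenchymal genes known downstream of Hedgehog, 10 were higher in the stromal set and none lower, with a median difference of 5.33 against -0.10 over all genes. Foxf1, a mesenchymal forkhead factor and Hedgehog target, was 246 CPM against 1.61 CPM, Tcf21 was 262 against 2.45 CPM and Osr1 was 127 against 0.777 CPM. These genes also mark mesenchyme as such, so the cell type and the signal cannot be told apart by their level. Of 5 co-receptors and receptors 4 were higher, with Gas1 at 505 against 4.89 CPM and Cdon at 47.1 against 5.06 CPM, and Lrp2, the fifth, was lower. Of 12 tested endoderm regulators 12 were lower, led by Cdx1 (0 against 80.4 CPM), Hnf4a (2.21 against 75.1 CPM) and Cdx2 (7.37 against 179 CPM). Of 9 tested ligand processing genes 6 were higher and 1 lower (median 1.60). Of 17 cytoplasmic regulators 5 were higher and none lower (median 0.59), and of 11 cilium genes 4 were higher and none lower (median 0.27). Among 8 other reported Gli targets the directions were mixed, with 3 higher and 2 lower (median 0.34). In lists this short, a count of 3 to 5 rests on few genes.

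Across the 69 clusters of at least 50 cells in the 4 libraries, the genes most like each member were named by Pearson's r of log2 levels among 12836 genes. Clusters of a library share its depth and preparation, so these values are descriptions. For Shh they were Lin28b (0.97), Palm3, Zfp985, Car14 and Ldoc1 (0.95). Ihh was nearest Cdx2 (0.80), then Kmt5a, Lad1, Stard4 and Trim2 (0.77). Gli1 was nearest the mesenchymal genes Nkx2-3 (0.95), Foxf1, Tcf21, Islr and Lum (0.89), and Hhip nearest Cxcl14 (0.82), Tac2, Wnt6, Sostdc1 and Cavin2 (0.60). For Ptch1 they included Rpgr (0.89), Ptbp2, Uri1 and Tet1 (0.85). By rank correlation, 4 of the 5 genes were shared for Ihh, 1 for Shh, Ptch1 and Hhip each, and 0 for Gli1. Stromal clusters 22, 23 and 24 of E17.5, with 46, 23 and 22 cells, fell short of 50 cells and were not included. In the clusters kept, E12.5 cluster 13 had 9 Gli1 and 27 Hhip UMIs. E17.5 clusters 17 and 21 had 3 Gli1 UMIs each. The r values of Gli1 and Hhip thus rest on few molecules.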

How the data were processed

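Single-cell RNA was measured in 4 libraries, 1 per group. The authors deposited raw UMI counts per gene and cell barcode, made with Cell Ranger 3.1.0 against mm10 per the submitters' processing notes, and the lowest total per deposited barcode was 500 UMIs. The filter on cells was 500 or more genes with no more than 20% mitochondrial UMIs. No doublet step was applied, and removal of the highest Scrublet scores was an alternative. Counts were summed per population and scaled to CPM. Ratios used a pseudocount of 1 CPM, and a gene was called past 2-fold with at least 10 UMIs in either population. Intervals were exact Poisson for levels and Clopper-Pearson for shares, at 95%, and PCR or capture effects are not covered. Clusters were found per library with scanpy 1.11.5 and Leiden (leidenalg 0.10.2) on 2000 variable genes, 30 components and 20 neighbours at resolution 1. A cluster was named from at least 3 markers, each in 25% of its cells and 2-fold above the rest. TMM factors came from edgeR 4.0.16, as an alternative scale only. The ratio step was tested on simulated data. Gene positions came from GENCODE M21, in which 99.6% of the 31054 feature IDs were found.

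Named genes were the 8 members, up to 3 genes per list and comparison with the largest log2 difference and at least 50 UMIs in the higher population, and the 5 genes most like each of 5 members among genes with at least 200 UMIs. Some genes that these rules pick are not reported here. Others named were chosen after their values were seen. The members and lists were chosen with earlier results of these data known.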

Additional observations from a re-analysis of the deposited data

Results flagged for a closer look

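Cells without an Epcam UMI that lie outside the E17.5 stromal set were left out of the comparisons between libraries. The cluster levels include them. In the E12.5, adult and irradiated adult libraries 12 values in such cells exceeded the level of 3 UMIs. Such cells of E17.5 were not counted here. In 265 such cells at E12.5, with a median of 923 UMIs, Shh was 156 CPM (79 UMIs) and Ihh 39.5 CPM (20 UMIs). In the same cells Ptch1 was 134 CPM (68 UMIs), Smo 168 CPM (85 UMIs), Hhip 37.5 CPM (19 UMIs), Gli1 13.8 CPM (7 UMIs) and Gli3 39.5 CPM (20 UMIs). All 19 of these Hhip UMIs and all 7 of the Gli1 UMIs were in 32 cells of cluster 13, whose level over all its cells is given above. Of the 79 Shh UMIs, 3 were in those 32 cells and 53 in 165 cells of the shallow cluster 2. In 523 such cells of the adult Ihh was 5.86 CPM (7 UMIs), Ptch1 17.6 CPM (21 UMIs) and Smo 4.19 CPM (5 UMIs). In 236 such cells of the irradiated adult Ihh was 10.5 CPM (5 UMIs) and Ptch1 16.8 CPM (8 UMIs).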

How the results depend on the processing

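Directions of all 2-fold calls held under the alternatives tried, and 5 of 8 members passed between the fetal stages in each of 9. With a pseudocount of 0.1 or 10 CPM, Shh between E12.5 and E17.5 was -6.10 or -4.49, Gli1 in the stroma 4.98 or 0.83, and the number of members past 2-fold from E17.5 to the adult 6 or 0. With 10 CPM, Ihh was -1.20 between the fetal stages and -0.96 from E17.5 to the adult, stromal Ptch1 was 1.89, and the counts were 5 in the stroma and 0 after irradiation. With each cell's CPM averaged, Shh was -6.47, Ihh -1.60 between the fetal stages and 0.72 after irradiation, stromal Ptch1 2.03, and the count after irradiation 0, as it was (0) with at least 1000 genes and at most 10% mitochondrial UMIs. Outside the non-gut clusters Ihh was -1.25 and -1.52 in the 2 steps. TMM factors, which shifted all genes by 0.13 between the fetal stages and by -0.24 in the stroma, gave Ihh -1.25. Without stromal cluster 23, chosen after seeing the data, Ptch1 was 1.76. Shares moved with the depth they were thinned to. At 1000, at 4000 and without thinning, Ihh was 8.95%, 31.3% and 72.0% at E12.5, 3.06%, 10.6% and 34.0% at E17.5, 1.09%, 4.34% and 8.24% in the adult, and 1.60%, 5.65% and 14.3% after irradiation. Shh was 27.5%, 68.2% and 89.2% at E12.5, and 0.167% at 1000 and 6.32% without thinning at E17.5. Ptch1 was 1.82%, 7.26% and 22.6% in the E17.5 epithelium, and 19.1% at 4000 and 27.2% without thinning in the stroma. The cause was not tested, beyond that fewer UMIs per cell give fewer detections. No paired analysis was possible because each group is 1 library. With at most 12 UMIs in any population, Gli1 and Gli2 are limited by depth.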
